A study of Mus musculus with 6 samples.

Results

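The genes described here encode proteins that switch off chemoattractant receptor signals in neutrophils. They are 5 regulators of G protein signalling (Rgs1, Rgs2, Rgs14, Rgs18 and Rgs19), the beta-arrestin gene Arrb2 and the receptor kinase genes Grk2 (older symbol Adrbk1) and Grk6. These 8 genes were taken by name from a count table of 51789 mouse genes, and each matched 1 identifier. The samples were neutrophils drawn from mouse bone marrow with beads against Ly6G, a neutrophil surface protein, at a stated purity above 95%. There were 2 groups of 3 samples, wild type (WT) and knockout (KO) by their labels; the targeted gene, Snph, encodes syntaphilin, which anchors mitochondria on microtubules. By its title the series concerns how neutrophils migrate in cancer. No strain, age, sex, treatment or knockout allele is given in the labels, which also do not tell whether each sample is a separate animal. The p-values therefore cover the spread between samples, and that spread may be technical.

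Receptors for chemokines, formyl peptides and complement fragments act mainly through Gi proteins, which release a Gi alpha subunit bound to GTP and a free beta-gamma dimer. RGS proteins shorten this state by speeding the hydrolysis of GTP on the alpha subunit. Receptor kinases (GRKs) phosphorylate the active receptor, and beta-arrestins then bind it, uncouple it from the G protein and lead it into clathrin-coated pits. A neutrophil depends on these brakes to stop responding to one attractant and follow another.

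The libraries hold 1 tag from the 3′ end of each polyadenylated transcript, so levels of different genes can be set side by side without dividing by length. This holds where the 3′ end of a gene is annotated and its tags can be mapped, which was not checked gene by gene. Total counts ran from 7018388 to 9664381 per library, and levels are given as counts per 1e6 tags scaled by TMM factors (CPM; n = 3 libraries per group throughout). Snph went against the group labels, with no count under the WT label (0 in all 3 libraries) and 5, 2 and 8 counts across KO 1 to 3 (two-sided exact permutation p = 0.1, the smallest for 3 against 3 samples). Which part of Snph was deleted is not stated in the labels, so a 3′ tag does not settle them, and every direction below rests on the labels as they stand. KO 3 stood apart from its group: on principal component 1, with 27.9% of the variance, it was at -3.91, KO 1 and KO 2 were at 23.5 and 29.2, and libraries labelled WT were at -18.3 to -13.2. Defining neutrophil genes were abundant: 12 of 12 were tested and S100a8 and S100a9 were the highest. Here a gene rose or fell under the KO label where its edgeR adjusted p was under 0.05, as did 1.03% of all tested genes. Of the 12 neutrophil genes, 2 rose (S100a8 and Retnlg) and 0 fell. Of the same 12, 11 were higher under the KO label (50.9% of all tested genes were). An unadjusted edgeR p under 0.05 was found for 7 of them (11.4% of all tested genes). S100a8 and S100a9 gave the most to the summed level of the list. This sum was 286110.9 to 307464.3 CPM in the WT-labelled and 326886.0 to 348792.2 CPM in the KO-labelled libraries. Of the 11 macrophage markers (Vcam1 and C1qb the most abundant) all fell, and the summed level was 1210.5 to 1294.9 CPM against 548.5 to 684.0 CPM. Of the 7 tested platelet markers (Ppbp and Pf4 the most abundant) 4 fell, at a summed 142.8 to 175.0 CPM against 67.5 to 98.0 CPM, with Tubb1 at 0 throughout. Of 6 tested plasma cell markers 3 rose and of 4 tested eosinophil and basophil markers 1 fell, while none of the tested monocyte (6), dendritic cell (4), B cell (7), T and NK cell (2) or erythroid (8) markers passed. At an unadjusted edgeR p under 0.05 there were 3 dendritic cell, 2 B cell, 1 monocyte, 1 T and NK cell and 0 erythroid markers. Summed levels did not overlap for dendritic cells (139.8 to 185.3 against 86.5 to 136.4 CPM) or B cells (27.7 to 31.9 against 22.6 to 23.0 CPM). They overlapped for monocyte, T and NK cell and erythroid markers.

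In these bulk libraries of bone marrow neutrophils, 7 of the 8 transcripts were at 67.0 CPM or more in every library. Which cells of a preparation carried these transcripts was not tested. None of the 8 passed the test between the groups. All 8 passed the filter on low counts. With edgeR's quasi-likelihood test and a threshold of 0.05 on p adjusted over 10397 genes, 0 of 8 were called, where 1.03% of all tested genes were called. At an unadjusted p under 0.05 the count was 1 of 8 by edgeR, by DESeq2 and by limma-voom, where edgeR gave 11.4% of all tested genes. The median log2 difference (KO-labelled over WT-labelled) of the 8 genes was 0.11 and that of all tested genes 0.01. For the 7 genes above 10 CPM the 95% intervals of the fold difference reached from 0.884 at the lowest to 1.40 at the highest, so differences beyond those bounds lay outside the intervals. In simulated counts for the same comparison (10128 genes tested), 52% of genes raised 1.5-fold and 98% of genes raised 2-fold were called. Of genes lowered to 0.5-fold, 86% were called. The changed genes were drawn at random from genes of many levels, so these shares are not specific to the 8 members.

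**Figure D1:**
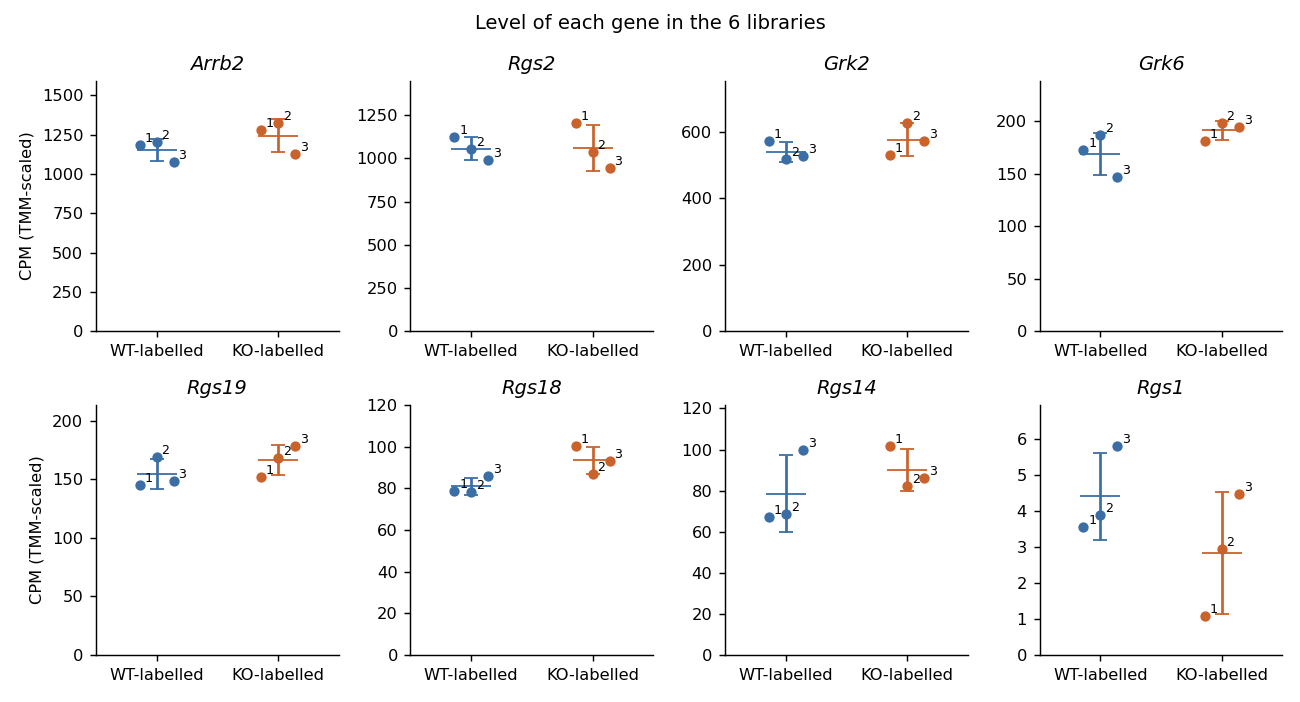
Level of each gene in CPM (TMM-scaled, vertical axes from 0) in the WT-labelled (blue) and KO-labelled (orange) libraries; points are libraries with their replicate number, horizontal bars the mean and error bars the SD (n = 3). Groups overlap in every panel except that of Rgs18, and the highest and lowest panels differ in scale from 1325 CPM for Arrb2 to 5.79 CPM for Rgs1.

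The order of levels put arrestin and Rgs2 first, then the kinases, then the remaining RGS genes. Arrb2 had the highest mean over the 6 libraries, 1198 CPM (range 1074 to 1325), and lay above 99.4% of tested genes. Rgs2 came next at 1059.9 CPM (944 to 1207), and its range overlapped that of Arrb2. Grk2 followed at 558 CPM (518 to 628), clear of Rgs2 and 3.10 times Grk6. Grk6, at 180.2 CPM (147 to 199), and Rgs19, at 160.3 CPM (145 to 178), overlapped each other. Rgs18, at 87.2 CPM (78.3 to 100.2), and Rgs14, at 84.3 CPM (67.0 to 101.5), overlapped as well and lay below Rgs19 in every library. Rgs1 was last at 3.62 CPM (1.08 to 5.79), 23.3 times below Rgs14. The 8 genes together took 0.313% to 0.346% of all counts in a library.

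Rgs2, which is known as an inhibitor of Gq alpha, was the main RGS transcript and was centred on no difference. Its level was 1123, 1054 and 992 CPM across WT 1 to 3 and 1207, 1039 and 944 CPM across KO 1 to 3. KO 1 was the highest and KO 3 the lowest of all 6 libraries, so the WT-labelled values lay inside the KO-labelled range. The means were 1056 ± 65.2 and 1063 ± 133 CPM (SD, n = 3), a log2 difference of 0.01 (SE 0.09, 95% interval -0.18 to 0.20, edgeR adjusted p = 0.978). The sign of a value this small had no fixed direction: it was below 0 with scaling to the total count (-0.10), with upper-quartile factors, with a stricter filter on low counts, and without WT 3 or KO 1.

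Rgs18, an RGS gene of blood cells that is also abundant in platelets, was the one member without overlap between the groups (16.8% of tested genes had none). It was at 78.9, 78.3 and 85.7 CPM across WT 1 to 3 and at 100.2, 87.1 and 93.3 CPM across KO 1 to 3. Each KO-labelled library was above each WT-labelled one, the closest pair being WT 3 and KO 2. The means were 80.95 ± 4.13 and 93.5 ± 6.55 CPM (SD, n = 3), 1.16-fold (log2 0.21, SE 0.09, 95% interval 0.02 to 0.40), which did not pass (unadjusted p = 0.0302, edgeR adjusted p = 0.370). Scaled to the total count alone the groups overlapped, with WT 3 at 90.6 and KO 2 at 82.5 CPM, and the log2 difference was 0.10. In the KO-labelled libraries the summed neutrophil markers were higher (2 of 12 called) and the summed platelet markers lower (4 of 7 called), and their part in the Rgs18 values was not tested; in bulk RNA a change in the number of cells of a type cannot be told apart from a change in RNA per cell.

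Rgs19, also known as GAIP, acts on Gi alpha subunits. It was at 145.4, 168.8 and 148.9 CPM across WT 1 to 3 and at 152.3, 168.5 and 178.1 CPM across KO 1 to 3. The groups overlapped, with WT 2 above KO 1 and KO 2. The means of 154 ± 12.6 and 166 ± 13.03 CPM (SD, n = 3) gave a log2 difference of 0.11 (SE 0.09, 95% interval -0.09 to 0.30, edgeR adjusted p = 0.732). With scaling to the total count the difference was 0.00476, and without 1 library it ran from 0.05 (without KO 3) to 0.18 (without WT 2).

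Rgs14, which joins an RGS domain to a motif that binds GDP-bound Gi alpha, varied most among the members above 10 CPM. It was at 66.98, 68.8 and 99.99 CPM across WT 1 to 3 and at 101.5, 82.2 and 86.3 CPM across KO 1 to 3. WT 3 stood 1.49 times above WT 1 and beside the KO-labelled values, while WT 1 and WT 2 were below all of them. The coefficient of variation was 23.6% in the WT-labelled group, where counting alone gives 3.94%. The log2 difference was 0.20 (SE 0.14, 95% interval -0.09 to 0.49, edgeR adjusted p = 0.647). Without WT 3 it was 0.41 (adjusted p = 0.138). It was 0.10 without WT 1, 0.11 without WT 2, 0.11 without KO 1 and 0.09 with scaling to the total count, and none of these fits called it.

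Rgs1, known from activated B cells and other lymphocytes, was sparse. It had 29, 38 and 43 counts across WT 1 to 3 and 8, 20 and 40 across KO 1 to 3. In CPM these were 3.56, 3.88 and 5.79 against 1.08, 2.94 and 4.46, so KO 1 and KO 2 lay below every WT-labelled library and KO 3 among them. The log2 difference was -0.61 (SE 0.43, 95% interval -1.52 to 0.30, edgeR adjusted p = 0.660). It was -1.14 without KO 3 and -0.23 without KO 1, and neither fit called it. KO 3 also had the highest macrophage marker sum of the KO-labelled libraries (684.0 CPM, beside 548.5 and 573.7 in KO 1 and KO 2); the part of those cells, or of B cells (summed markers 27.7 to 31.9 CPM in WT-labelled and 22.6 to 23.0 CPM in KO-labelled libraries), in the Rgs1 counts was not tested.

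**Figure D2:**
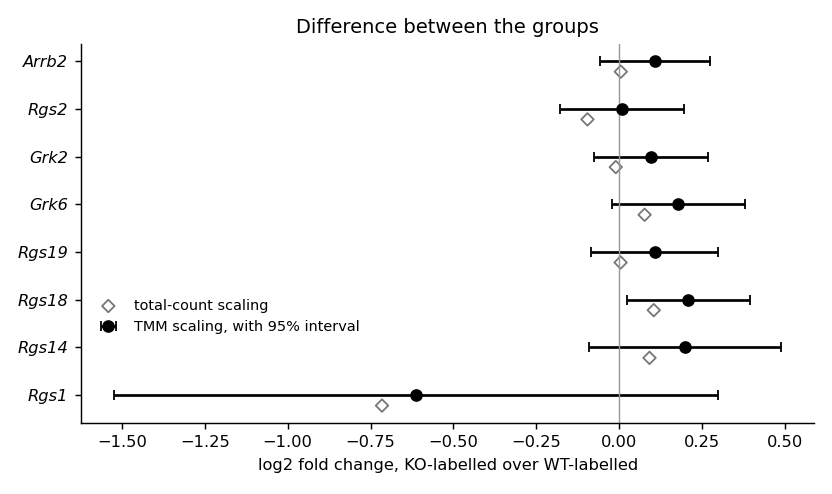
Log2 fold change of KO-labelled over WT-labelled libraries for each gene, with TMM scaling (filled circles, bars are 95% intervals) and with scaling to the total count alone (open diamonds). The interval of Rgs18 alone lies above 0 (0.02 to 0.40), and every diamond lies to the left of its circle.

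Arrb2 encodes beta-arrestin 2, which binds phosphorylated receptors. It was at 1183, 1200 and 1074 CPM across WT 1 to 3 and at 1281, 1325 and 1125 CPM across KO 1 to 3. KO 1 and KO 2 were above all WT-labelled libraries and KO 3 was below WT 1 and WT 2. The means were 1152 ± 68.0 and 1244 ± 106 CPM (SD, n = 3), a log2 difference of 0.11 (SE 0.08, 95% interval -0.06 to 0.28, edgeR adjusted p = 0.663). With scaling to the total count it was 0.00535, and without 1 library it ran from 0.06 (without KO 2) to 0.17 (without KO 3). The exons of Arrb2 overlap the microRNA gene Mir7115 on its strand, so tags from that stretch could be assigned to either.

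Grk2, the kinase that free beta-gamma dimers bring to the membrane, was at 574, 518 and 528 CPM across WT 1 to 3. Across KO 1 to 3 it was at 530.0, 628 and 572 CPM. The groups overlapped, with WT 1 above KO 1 and KO 3, and the log2 difference was 0.10 (SE 0.08, 95% interval -0.08 to 0.27, edgeR adjusted p = 0.733); it was -0.00981 with scaling to the total count, and without 1 library it ran from 0.03 (without KO 2) to 0.15 (without KO 1).

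Grk6, a membrane-bound kinase that phosphorylates chemokine receptors in leukocytes, was at 172, 187 and 147 CPM across WT 1 to 3. Across KO 1 to 3 it was at 182, 199 and 194 CPM, so that WT 2 alone kept the groups from separating. The means were 169 ± 20.0 and 191 ± 8.87 CPM (SD, n = 3), a log2 difference of 0.18 (SE 0.09, 95% interval -0.02 to 0.38, edgeR adjusted p = 0.502). Without WT 2 the difference was 0.26 and without WT 3 it was 0.09; with scaling to the total count it was 0.08, and none of these fits called it.

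Shares within a family need no scaling between libraries. Rgs2 made up 75.0%, 72.5% and 70.6% of all RGS family counts across WT 1 to 3 and 73.6%, 70.5% and 68.3% across KO 1 to 3. Its exact binomial 95% intervals, which cover counting error only, were narrow. They were 74.3% to 75.8% in WT 1 and 69.7% to 71.5% in WT 3. In KO 1 and KO 3 they were 72.8% to 74.4% and 67.4% to 69.1%. Libraries of 1 group thus differed by more than counting error while the groups overlapped. Rgs19 held 10.6% ± 0.943 and 11.2% ± 1.80 (SD, n = 3) of the family in the WT-labelled and KO-labelled libraries, Rgs18 5.58% ± 0.450 and 6.25% ± 0.438, Rgs14 5.44% ± 1.46 and 6.001% ± 0.369, and Rgs1 0.306% ± 0.0936 and 0.196% ± 0.129. The share of Rgs18 overlapped between the groups, WT 3 at 6.10% being above KO 2 at 5.90%. Arrb2 made up 88.8% ± 0.325 and 89.7% ± 1.49 (SD, n = 3) of the counts of the beta-arrestin genes Arrb1 and Arrb2.

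Grk2 and Grk6 together made up nearly all receptor kinase tags. Grk2 held 74.6%, 71.4% and 75.9% of the kinase counts across WT 1 to 3 and 72.4%, 74.1% and 72.6% across KO 1 to 3. Grk6 held 22.4%, 25.8% and 21.2% and then 24.8%, 23.4% and 24.6%. Of the 6 kinase genes, 2 had shares that did not overlap between groups. Grk5 was at 1.21%, 1.23% and 1.14% in the WT-labelled and 1.47%, 1.42% and 1.44% in the KO-labelled libraries. Grk3 was at 1.08%, 0.662% and 1.12% against 0.423%, 0.330% and 0.651%. Each of these shares rests on 19 to 102 counts, and Grk3 had 47 in WT 2 and 46 in KO 3. In CPM Grk5 did not overlap either, but Grk3 did, with WT 2 at 4.80 and KO 3 at 5.13. By that measure 16.8% of all tested genes did not overlap, and no such background was computed for shares. These 2 genes were picked out after their values were seen, and the shares of Grk1, Grk2, Grk4 and Grk6 overlapped.

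**Figure D3:**
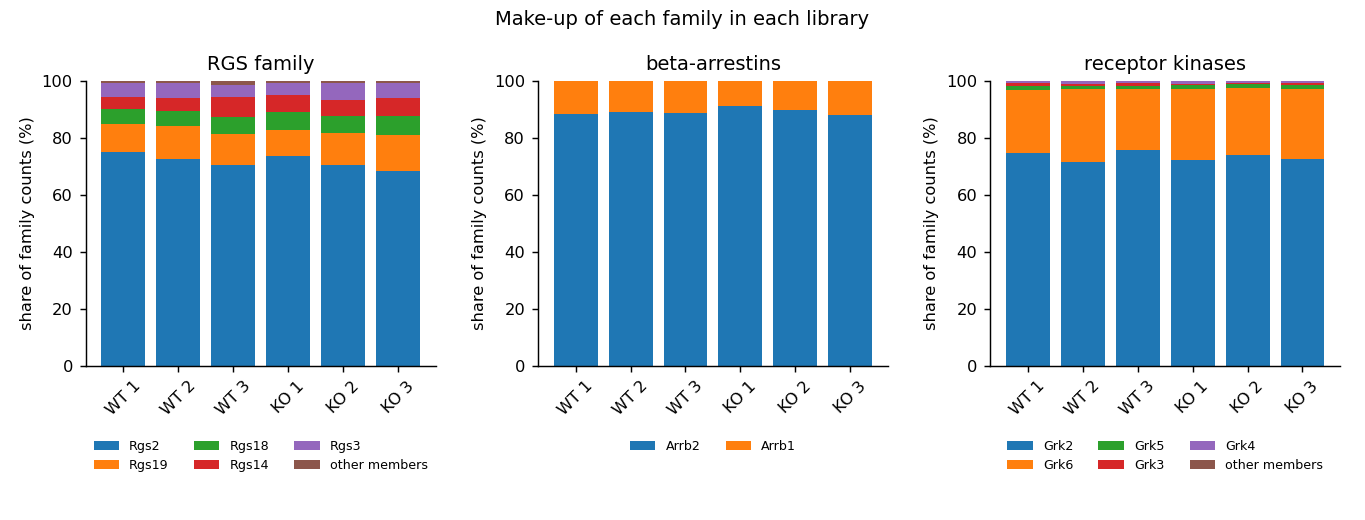
Share of each gene in the counts of the RGS family, the beta-arrestins and the receptor kinases, in each library (stacked bars, vertical axes 0 to 100%). Rgs2, Arrb2 and Grk2 lead their family in all 6 libraries, with Rgs2 at 68.3% to 75.0% of its family and Arrb2 at 88.2% to 91.2%.

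Ratios between genes within a library need no scaling either. Arrb2 had 3.42, 3.31 and 2.86 tags for each tag of Cxcr2, the main chemokine receptor of neutrophils, across WT 1 to 3 and 3.19, 3.85 and 2.896 across KO 1 to 3. Grk2 had 1.4975 ± 0.141 and 1.54 ± 0.259 tags per Cxcr2 tag (SD, n = 3). Rgs2 had 0.330 ± 0.0193 and 0.336 ± 0.0600 tags per tag of Gnai2 (SD, n = 3), which encodes the main Gi alpha subunit and took 97.4% to 98.3% of the Gi alpha counts. That ratio compares levels only and does not set Rgs2 against a target, since Rgs2 is known as an inhibitor of Gq alpha. The groups overlapped in each of the 6 ratios computed, the others being Grk2 to Grk6, Arrb2 to Grk2 and Arrb2 to Arrb1.

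Several members lie near each other in the genome, with other genes between them (GRCm38, the assembly that mm10 names). Rgs2 (ENSMUSG00000026360, chromosome 1, 143999338 to 144004161), Rgs1 (ENSMUSG00000026358, 144242296 to 144249242) and Rgs18 (ENSMUSG00000026357, 144752683 to 144775435) stand on the minus strand of chromosome 1 with Rgs13 and Rgs21, and these 5 are the protein-coding genes of a stretch of 776 kb. Along it the mean level was 1059.9 CPM for Rgs2, 0 for Rgs13, 3.62 CPM for Rgs1, 0 for Rgs21 and 87.2 CPM for Rgs18. Rgs13 and Rgs21 had 0 counts in all 6 libraries, which allows a level of up to 0.310 to 0.427 CPM per library (3 counts of the total; counting error only). Neighbouring genes of 1 family thus ranged from the most abundant RGS transcript to no tag.

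On chromosome 13, Rgs14 (ENSMUSG00000052087, 55369732 to 55384687) and Grk6 (ENSMUSG00000074886, 55445072 to 55460927) are 60.4 kb apart on the plus strand. Of the protein-coding genes between them, Slc34a1 had 3 counts in all, Pfn3 had 0, and F12 was at 2.89 CPM. The other members stand alone: Rgs19 (ENSMUSG00000002458, chromosome 2, 181688419 to 181693977, minus strand), Arrb2 (ENSMUSG00000060216, chromosome 11, 70432635 to 70440828, plus strand) and Grk2 (ENSMUSG00000024858, chromosome 19, 4286001 to 4306222, minus strand). Rgs19 shares its chromosome with Snph, 30056 kb away. Each value is for the whole gene, since the table does not divide counts among exons or 3′ ends.

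The rest of the RGS family was sparse. Of 16 other RGS genes 7 had no count and 4 were tested, none of which passed (0 higher, 0 lower; median log2 difference -0.03). Rgs3 was the one other abundant gene, at 68.2 ± 6.93 and 75.8 ± 10.6 CPM (SD, n = 3; log2 0.15, edgeR adjusted p = 0.687), close to Rgs14. Rgs10 was at 5.91 ± 1.61 and 3.77 ± 1.28 CPM (SD, n = 3; log2 -0.62, edgeR adjusted p = 0.4998), and like Rgs1 it was lower in KO 1 and KO 2 (2.97 and 3.09 CPM) than in KO 3 (5.24 CPM).

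Of 12 other arrestin, kinase and alpha-arrestin genes 10 were tested and 0 passed in either direction (median 0.06). Arrb1, the gene of beta-arrestin 1, was at 145 ± 9.59 and 142 ± 16.0 CPM (SD, n = 3; log2 -0.03, edgeR adjusted p = 0.935). Txnip, an alpha-arrestin that limits glucose uptake, was the most abundant at 627 ± 122 and 769 ± 125 CPM (SD, n = 3; log2 0.30, edgeR adjusted p = 0.394); it has an antisense neighbour, Gm15441, and was called only in the fit with no filter on low counts (adjusted p = 0.0182). Grk3, the closest relative of Grk2, was at 8.34, 4.80 and 7.82 CPM across WT 1 to 3 and at 3.10, 2.79 and 5.13 CPM across KO 1 to 3 (log2 -0.90, SE 0.31, edgeR adjusted p = 0.262). The macrophage markers were lower in the same libraries, and their part in the Grk3 and Rgs10 values was not tested.

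Among chemoattractant receptors 13 of 16 genes were tested and 0 passed (median 0.11). Fpr2, a formyl peptide receptor gene, was at 1375 ± 91.6 and 1483 ± 78.0 CPM (SD, n = 3), with counts that are uncertain because its exons overlap Fpr3 on the same strand. Cxcr2 was at 361 ± 15.1 and 378 ± 30.2 CPM (SD, n = 3; log2 0.07). Fpr1 (log2 0.24, edgeR adjusted p = 0.196) and the complement receptor gene C5ar1 (log2 0.20, edgeR adjusted p = 0.371) had the smallest p-values.

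Among 27 G protein subunit genes 17 were tested and 0 passed (median -0.00260). Gnai2 was at 3213 ± 334 and 3186 ± 260 CPM (SD, n = 3; log2 -0.01), and the gamma subunit gene Gng5 at 404 ± 14.8 and 461 ± 26.7 CPM (SD, n = 3; log2 0.19, edgeR adjusted p = 0.344). Gna15, of the Gq class, was at 19.995, 18.7 and 14.7 CPM across WT 1 to 3 and at 10.51, 12.2 and 11.8 CPM across KO 1 to 3 (log2 -0.63, SE 0.17, edgeR adjusted p = 0.121). Gng11, a gamma subunit gene known from platelets, was at 2.89 ± 0.368 and 1.27 ± 0.271 CPM (SD, n = 3; log2 -1.16, edgeR adjusted p = 0.305), in the direction of the platelet markers, whose part was not tested. Gna15 passed only with scaling to the total count (adjusted p = 0.0468).

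Of 19 effector genes 14 were tested and 0 passed (median 0.06). Dock2, a Rac activator, was at 337 ± 36.0 and 368 ± 24.6 CPM (SD, n = 3; log2 0.13), and Gpsm3, which binds Gi alpha, at 325 ± 22.3 and 342 ± 13.8 CPM (SD, n = 3; log2 0.07); exons of Gpsm3 overlap Pbx2 on its strand and its counts are uncertain. Pik3r5, the p101 adaptor of PI3K gamma, was at 76.2 ± 1.35 and 92.4 ± 8.02 CPM (SD, n = 3; log2 0.28, edgeR adjusted p = 0.196). Adcy3, an adenylyl cyclase gene with an antisense neighbour, was at 5.18 ± 0.190 and 3.43 ± 0.709 CPM (SD, n = 3; log2 -0.58, edgeR adjusted p = 0.480).

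Over the 73 tested pathway genes other than the members there was 1 call, a share near the 1.03% of all tested genes called in either direction. It was in the list for the step after arrestin, which is set out here because it holds the call. Of 15 genes of clathrin, its adaptor AP2, dynamin and early endosomes, 1 rose and 0 fell (median 0.04), where 0.24% of all tested genes were called higher. That gene was Picalm, which encodes a clathrin assembly protein: 273, 287 and 249 CPM across WT 1 to 3 and 397, 363 and 367 CPM across KO 1 to 3. All KO-labelled libraries lay above all WT-labelled ones (1.39-fold, log2 0.48, SE 0.08, edgeR adjusted p = 0.00722), and the call held in each of 14 alternative fits (adjusted p up to 0.0446). The summed neutrophil markers, of which 2 of 12 were called, were higher in the same libraries, and their part in the Picalm values was not tested. The early endosome gene Rab5c did not pass at 271 ± 4.51 and 305 ± 0.229 CPM (SD, n = 3; log2 0.17, edgeR adjusted p = 0.369). The AP2 subunit gene Ap2a2 was at 61.0 ± 2.91 and 47.95 ± 4.73 CPM (SD, n = 3; log2 -0.35, edgeR adjusted p = 0.154); it has an antisense neighbour and passed only with scaling to the total count (adjusted p = 0.0445).

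**Figure D4:**
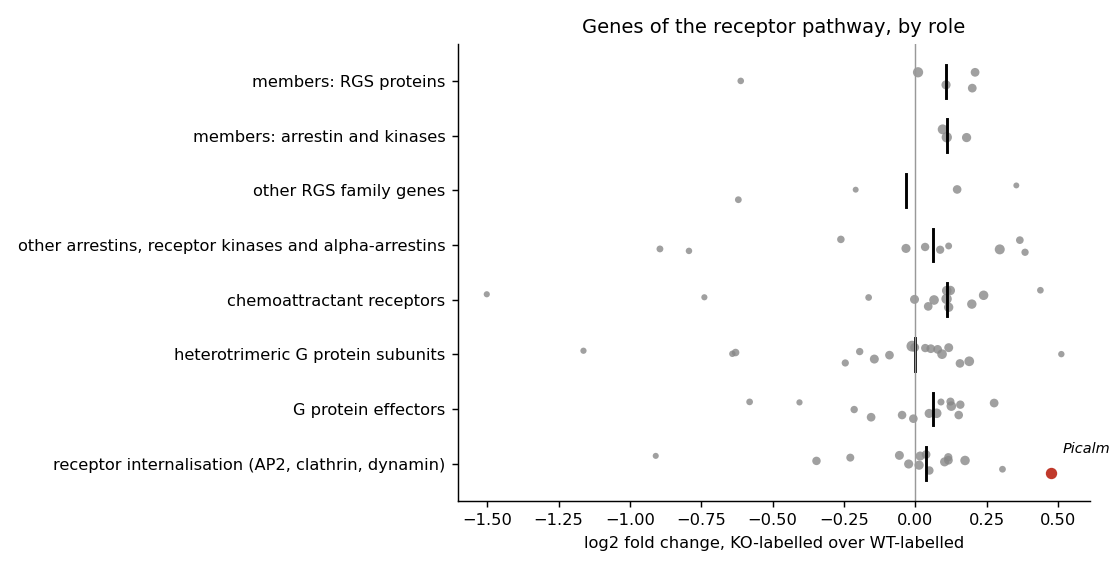
Log2 fold change of KO-labelled over WT-labelled libraries for every tested gene of each list (points, larger for higher mean CPM, spread vertically to separate them; black bars are list medians; red marks an edgeR adjusted p under 0.05). Picalm is the one red point, at 0.48, and the 2 member rows hold none.

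The genes whose pattern over the 6 libraries came nearest to each member were found by the root mean square difference of log2 CPM after each gene's own mean was taken off, among 5934 genes of at least 10 CPM. For Rgs18 these were Fermt3, the kindlin gene of blood cells (0.0223), and Cebpd, a C/EBP transcription factor gene (0.0261), where the median gene stood 0.180 away. For Rgs2 they were Ei24 (0.0363) and Optn (0.0459), for Rgs19 Parl (0.0194) and Fam117b (0.0301), and for Rgs14 Rab28 (0.0485) and Pex5 (0.0782). For Arrb2 they were Ddx39b (0.0196) and Spcs1 (0.0236), for Grk2 Ppm1a (0.0240) and Zmpste24 (0.0285), and for Grk6 Psmb6 (0.0324) and Gm8797 (0.0331). With 6 libraries and so many genes some near match is found for any gene. Rgs1 was below the level set for this comparison.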

How the data were processed

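RNA of 6 samples was sequenced from Lexogen QuantSeq libraries, per the labels. The file deposited by the authors holds raw whole-number counts for Ensembl genes. The submitters' processing notes name RSEM 1.2.3, DESeq2 and mm10, without roles. Aligner, annotation release, strand setting and any filter: not given in the sources used here. Columns were matched to samples by title. Names came from GENCODE vM21 (51596 of 51789 identifiers matched). The members and lists were chosen with earlier results of these data known.

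All genes were tested with edgeR 4.0.16 (R 4.3.3; glmQLFit, glmQLFTest) on the counts, with TMM factors, filterByExpr defaults (minimum count 10, minimum total 15), Benjamini-Hochberg adjustment and a threshold of 0.05; all 6 libraries entered with group as the one term. SE is the log2 fold change over the root of F. 1 count was worth 0.103 to 0.142 CPM. Replicates differed by more than sampling noise (chi-square per degree of freedom 4.31 to 7.41). Alternatives were DESeq2 1.42.0, limma-voom (limma 3.58.1), other scalings and filters, a replicate block and leaving out each library. The text names the members, the 2 most abundant genes and the 2 of smallest p of each pathway list, nearest patterns and, for 3 marker lists, the 2 most abundant genes; genes outside this rule are Tubb1, Retnlg, genome neighbours and those said to be picked after their values were seen.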

Additional observations from a re-analysis of the deposited data

How the results depend on the processing

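None of the 8 members was called in any of the 14 alternative fits (Rgs1 was not tested under the filter of 5 CPM in 3 libraries); 0 to 3 had an unadjusted p under 0.05, and their adjusted p ran from 0.138 to 0.997. Scaling to the total count moved the median of all genes from 0.01 to -0.10 and put Rgs2 at -0.0953, Grk2 at -0.00981, Cxcr2 at -0.0387 and Gpsm3 at -0.0284. Rgs2 was also at -0.0127 with upper-quartile factors and at -0.00960 with the filter of 5 CPM in 3 libraries. Without 1 library Rgs2 ran from -0.0907 to 0.0847, Arrb1 from -0.0870 to 0.0585 and Gnai2 from -0.0938 to 0.0398, crossing 0; the other members kept their sign. DESeq2 called 174 genes in all (60 higher), scaling to the total count 162 (18 higher) and the fit with no filter 287 (114 higher), against 107 (25 higher); fits without 1 library called 49 to 97. Of the other pathway genes, 3 were called with scaling to the total count and 2 with no filter, against 1; the cause was not tested. Same-numbered WT and KO libraries showed no shared deviation (correlations -0.03, -0.000401 and -0.03). With 3 libraries per group this does not settle whether the numbers pair the samples, and the labels do not say. With the replicate number as a block 0 members, 1 other pathway gene and 92 genes in all were called. Rgs1, with 8 to 43 counts, had the widest SE (0.43); its coefficient of variation was 27.4% and 60.0% in the WT-labelled and KO-labelled libraries, where counting alone gives 16.7% and 25.8%.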

Other observations

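Transcripts of arrestins and kinases known from other tissues were counted in these neutrophil libraries. Sag, the arrestin of retinal rods, had 102, 131 and 145 counts across WT 1 to 3 and 97, 91 and 102 across KO 1 to 3, a mean of 15.1 ± 3.83 and 12.6 ± 1.08 CPM (SD, n = 3), and no annotated exon of another gene overlaps it. Grk4, known from testis, had 31 to 66 counts per library, at 5.44 ± 1.28 and 5.96 ± 0.750 CPM (SD, n = 3). The cone arrestin gene Arr3 had no count in any library, and the rod kinase gene Grk1 had 3 counts in WT 1, 2 in KO 3 and 0 in the others. Neither Sag nor Grk4 passed the test (edgeR adjusted p = 0.681 and 0.916). These genes were picked out after their values were seen.

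Among the alpha-arrestins beside Txnip, Arrdc1 was at 49.2 ± 10.3 and 50.5 ± 4.95 CPM and Arrdc3 at 39.0 ± 9.54 and 41.2 ± 4.30 CPM (SD, n = 3). Arrdc4 was at 13.5, 14.2 and 19.0 CPM across WT 1 to 3 and at 18.6, 19.4 and 21.9 CPM across KO 1 to 3 (log2 0.37, edgeR adjusted p = 0.424), with WT 3 inside the KO-labelled range. Arrdc2 was at 3.93 ± 0.916 and 2.23 ± 0.962 CPM (SD, n = 3; log2 -0.79, edgeR adjusted p = 0.491). These 4 genes, too, were picked out after their values were seen.

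Pathway genes of low level were more often below 0 than those of high level, by count. Of the 20 tested pathway genes under 10 CPM, members included, 14 had a log2 difference below 0 (median -0.49), beside 17 of 61 at or above that level (median 0.09). Over all tested genes the share below 0 was 59.9% of 4462 genes under 10 CPM (median -0.10) and 41.0% of 5935 genes at or above it (median 0.04). These differences were not tested, and scaling to the total count lowers the median of all genes to -0.10, so these counts hold for TMM scaling.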
